A study of Homo sapiens with 8 samples.

Results

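The miR-99/100 and miR-125 families were followed through 7 mature miRNAs, taken by name from a table of 1780. The 7 are hsa-miR-99a-5p, hsa-miR-99b-5p, hsa-miR-99b-3p, hsa-miR-100-5p, hsa-miR-125a-5p, hsa-miR-125a-3p and hsa-miR-125b-5p, written without the species prefix from here on, and the rule that names them uses no measured value. Small RNA was sequenced from DLD1 and HT29, both established human colorectal adenocarcinoma cell lines with no transgene or drug named for any group, after 6 days as a flat monolayer (2D) or as multicellular spheroids (MCS) in round-bottom wells coated with agarose. Each of the 4 groups had 2 libraries from replicates that the labels call biological. A 2D flask was seeded with 35000 DLD1 or 100000 HT29 cells, and a spheroid well with 7000 or 3500. DLD1 was kept in RPMI and sequenced with version V3 of the NEXTflex small RNA kit, HT29 in DMEM with version V2, both media with fetal bovine serum, so that kit, medium and seeding cannot be told apart from the cell line. Spheroids hold cells at different depths, and fewer cells with a miRNA and less of it per cell cannot be told apart in such bulk RNA. The comparison asks whether growth in 3D changed these miRNAs within each cell line.

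A miRNA hairpin is cut into a 5p and a 3p arm, and either can be loaded into an Argonaute protein, where bases 2 to 8 of the miRNA, the seed, pair with target messages. The miR-99/100 family is best known for restraining mTOR and the IGF1 receptor, and the miR-125 family, relatives of the worm miRNA lin-4, for roles in differentiation, blood cell formation and apoptosis. Their genes lie side by side with a let-7 gene in several clusters, an arrangement kept across animals.

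The mature sequences follow, 5′ to 3′ from RefSeq, whose table is built on GRCh38.p14, with the seed in capitals. They are shown because reads are told apart by these letters and the families are defined by them. The first 3 share the seed of the miR-99/100 family and the next pair that of the miR-125 family, while the 3p arms each have a seed of their own.
miR-99b-5p: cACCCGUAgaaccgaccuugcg
miR-99a-5p: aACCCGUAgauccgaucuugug
miR-100-5p: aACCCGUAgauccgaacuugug
miR-125a-5p: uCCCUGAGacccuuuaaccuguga
miR-125b-5p: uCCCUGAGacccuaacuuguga
miR-99b-3p: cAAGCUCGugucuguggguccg
miR-125a-3p: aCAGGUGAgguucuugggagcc
Counted from 1 at the 5′ end, miR-99a-5p differs from miR-100-5p by A16U alone. MiR-99b-5p differs from miR-100-5p by A1C, U11A, A16C and U21C. MiR-125a-5p and miR-125b-5p share their first 13 bases. The study's methods do not name how a read matching more than 1 mature miRNA was counted, so miR-99a-5p, 1 base away from a far more abundant relative in DLD1, is uncertain. Of the table's 1780 miRNAs, 1557 had a sequence in the reference, and 0 of them other than these 7 had a member's seed.

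On GRCh37, with GENCODE annotation, MIR99B lies at chr19:52195865-52195934, MIRLET7E at chr19:52196039-52196117 and MIR125A at chr19:52196507-52196592, all on the plus strand within 728 bases. These 3 hairpins lie in the protein-coding gene SPACA6, the first pair in introns and MIR125A overlapping an exon, and all overlap exons of the antisense lncRNA SPACA6-AS1. MIR100 (chr11:122022937-122023016), MIRLET7A2 (chr11:122017229-122017301) and MIR125B1 (chr11:121970465-121970552) lie on the minus strand in introns of the lncRNA MIR100HG, over 52552 bases. MIR99A (chr21:17911409-17911489) lies in an intron of the lncRNA MIR99AHG on the plus strand, with MIRLET7C (chr21:17912143-17912236) and MIR125B2 (chr21:17962557-17962645) overlapping exons of it, over 51237 bases. MiR-125b-5p is made from both MIR125B1 and MIR125B2, and its counts do not tell which. To show where the arms lie, 3 of these hairpins are given whole, with the 5p arm and then the 3p arm in capitals.
MIR99B: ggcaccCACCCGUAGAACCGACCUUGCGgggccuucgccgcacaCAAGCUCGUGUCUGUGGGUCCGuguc
MIR125A: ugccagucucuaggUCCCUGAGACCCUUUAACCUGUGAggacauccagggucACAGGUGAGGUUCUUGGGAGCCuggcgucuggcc
MIR125B1: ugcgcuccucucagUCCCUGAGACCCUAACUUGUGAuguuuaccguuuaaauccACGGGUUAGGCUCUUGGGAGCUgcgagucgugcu

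The libraries held 10495634 to 26211524 miRNA counts. HT29 replicates stood apart by their number: miR-10a-5p took 47.3% and 38.5% of counts in replicate 1 of 2D and MCS but 10.6% and 6.57% in replicate 2, against 15.2% to 19.0% in DLD1. Values below are normalized CPM, CPM of the library total (counts scaled to 1e+06) divided by edgeR's upper quartile factor within the cell line, which ran from 0.746 to 1.17 in DLD1 and from 0.522 to 1.66 in HT29. The biological coefficient of variation was 0.193 in DLD1 and 0.521 in HT29. The epithelial label held, since miR-200c-3p was at 10821 CPM or more in every library. The 5 epithelial markers summed to 56916 and 68079 CPM in DLD1 2D against 103957 and 101201 in MCS, and to 32689 and 59546 in HT29 2D against 98162 and 128568 in MCS. The mesenchymal list summed to at most 10.8 CPM and the liver marker miR-122-5p to at most 0.880. Of the blood list, miR-223-3p had no row, miR-451a stayed at or below 0.885 CPM, and miR-150-5p was at 0 in DLD1. In HT29 miR-150-5p was at 6.29 and 11.3 CPM in 2D and 38.2 and 63.7 in MCS. The muscle list rested on miR-1-3p, at 1.30 to 1.39 CPM in DLD1 2D, 8.21 to 10.0 in DLD1 MCS and 22.1 to 90.9 in HT29. Whether any of these lists bears on the values below was not tested.

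In DLD1 both arms of miR-99b fell in MCS, while miR-100-5p, miR-125a-5p and miR-125b-5p moved too little to be called. Of 346 miRNAs tested with edgeR's quasi-likelihood test, 41.3% were called, 11.6% as lower and 29.8% as higher, a call needing a 1.5-fold change or more together with a p-value under 0.05 after Benjamini-Hochberg adjustment. Of the members, 5 were tested and 2 were called, both lower. The members' median log2 fold change was 0.14 and that of all tested miRNAs 0.23.

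MiR-99b-5p, the member that led in HT29, was at 339 and 343 normalized CPM in DLD1 2D (replicates 1 and 2) and at 179 and 257 in MCS. Both MCS libraries lay below both 2D libraries, as 25.4% of the tested miRNAs did, at 0.529 times 2D among the replicates numbered 1 and 0.749 times among those numbered 2. The group means were 341 ± 2.84 (SD, n = 2) and 218 ± 54.9. The log2 fold change was -0.64 (SE 0.24), with an adjusted p-value from edgeR of 0.0195. It was the 43rd lowest of the 346.

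The other arm of the same hairpin, miR-99b-3p, was at 45.4 and 51.0 normalized CPM in 2D and at 16.5 and 29.1 in MCS. These groups did not overlap either, and the fall was steeper, with 48.2 ± 3.93 (SD, n = 2) against 22.8 ± 8.93. The log2 fold change was -1.08 (SE 0.32) and edgeR's adjusted p-value 0.00270. Both calls were lost without replicate 1 of MCS, with edgeR adjusted p-values of 0.0681 for miR-99b-5p and 0.0598 for miR-99b-3p. In a fit of all 8 libraries, which takes 1 spread for both cell lines, they were 0.696 and 0.102. The direction of both arms held under the 4 other scalings tried, at -1.12 to -0.78 and -1.58 to -1.23 on the log2 scale.

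MiR-100-5p, which shares the seed of miR-99b-5p and was the most abundant member in DLD1, was at 732 and 653 normalized CPM in 2D and 683 and 845 in MCS. The 2D and MCS libraries overlapped. The log2 fold change was 0.14 (SE 0.23, edgeR adjusted p = 0.622), and its sign turned under TMM factors (-0.06), library totals (-0.24) and an upper quartile taken from the tested miRNAs alone (-0.33).

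MiR-99a-5p, the relative from chromosome 21, was counted 10 and 40 times in 2D and 83 and 48 times in MCS. On the normalized scale both MCS libraries, at 4.44 and 3.15 CPM, lay above both 2D libraries, at 0.570 and 1.34. It was below the filter of 10 CPM and not tested. With no filter its log2 fold change was 1.95 (SE 0.69, edgeR adjusted p = 0.0421). In the same libraries its counts came to 0.0779% and 0.206% of those of miR-100-5p in 2D and 0.650% and 0.372% in MCS, and whether reads of miR-100-5p with an altered base 16 are among them was not tested.

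The 5p arms of the miR-125 family each had both MCS libraries above both 2D libraries, by less than the fold change of 1.5. MiR-125a-5p, from the chromosome 19 cluster, was at 118 and 142 normalized CPM in 2D and 149 and 176 in MCS (log2 fold change 0.33, SE 0.25, edgeR adjusted p = 0.300). MiR-125b-5p was at 88.2 and 81.1 in 2D and 104 and 107 in MCS (log2 fold change 0.32, SE 0.26, edgeR adjusted p = 0.335). Both fold changes lie near the median of all miRNAs, 0.23, and a lack of overlap was common in DLD1, at 70.8% of the tested miRNAs, 45.4% with MCS above. With library totals the median of all miRNAs shifted by -0.37 and the 2 values became -0.05 and -0.04, and the upper quartile of the tested miRNAs alone, which shifted it by -0.46, made both -0.13.

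MiR-125a-3p went the other way from its 5p arm, with 31 and 52 counts in 2D and 6 and 8 in MCS, or 1.77 and 1.75 against 0.321 and 0.524 normalized CPM. The groups did not overlap, but with these counts it was below the filter. With no filter the log2 fold change was -2.05 (SE 1.10, edgeR adjusted p = 0.319).

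**Figure D1:**
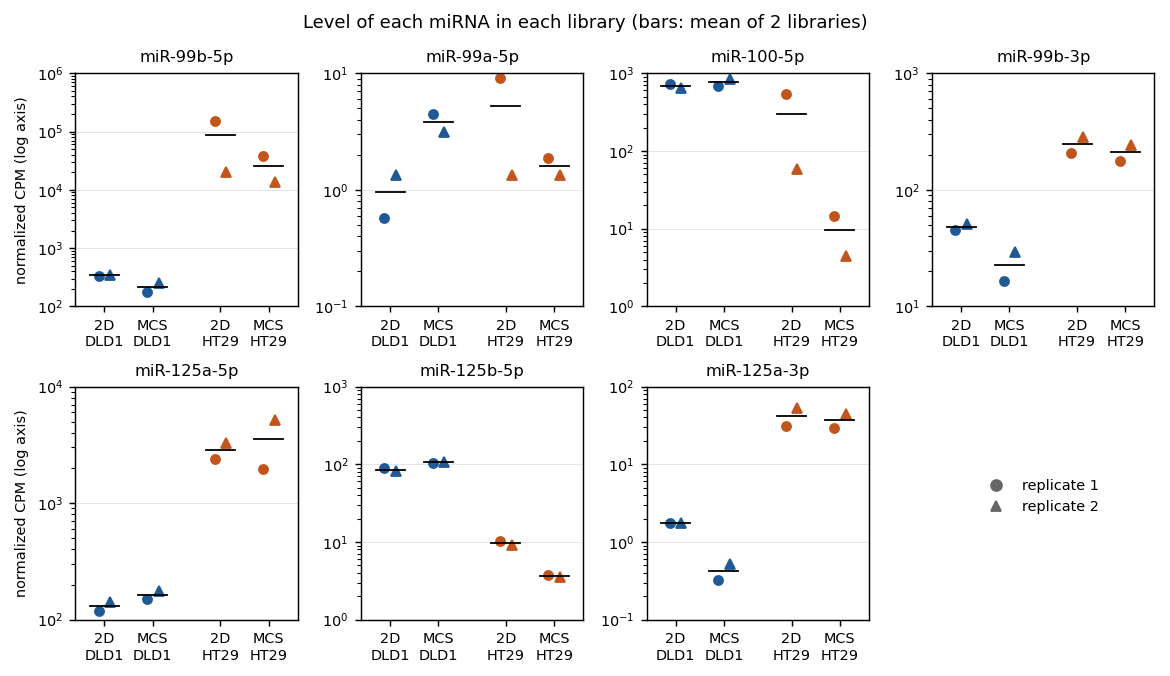
Normalized CPM of each of the 7 miRNAs in each library, on log axes that differ between panels, with DLD1 in blue, HT29 in orange, circles for replicate 1, triangles for replicate 2 and a bar at the mean of 2 libraries. In DLD1 miR-99b-5p lies at 339 and 343 in 2D and 179 and 257 in MCS, and in HT29 miR-100-5p lies at 539 and 58.0 in 2D and 14.6 and 4.42 in MCS. Scaling was set within each cell line.

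In HT29 miR-100-5p was far lower in MCS than in 2D in both replicates, yet edgeR's quasi-likelihood test called no member. Of 301 miRNAs tested, 0% were called (3.99%, or 12, at an unadjusted p-value under 0.05), and of the 5 members tested 0 were called, with 1 at an unadjusted p-value under 0.05. By DESeq2 1 of the 5 was called (11 of the 301) and by edgeR's exact test 1 (5 of the 301), in both cases miR-100-5p. The members' median log2 fold change was -0.23 and that of all tested miRNAs 0.03.

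MiR-100-5p was counted 2954 and 2525 times in HT29 2D and 116 and 118 times in MCS. That came to 539 and 58.0 normalized CPM in 2D and 14.6 and 4.42 in MCS. The replicates of 2D differed widely, yet both lay above both MCS libraries, as 10.6% of the tested miRNAs did. Among the replicates numbered 1 the 2D library was 37.0-fold higher, and among those numbered 2, 13.1-fold. The log2 fold change of -4.98 (SE 1.39) was the lowest of the 301, with an unadjusted p-value of 0.0163 and an adjusted p-value of 0.642 from edgeR. MiR-100-5p passed the filter of 10 CPM through 2D alone, at a mean of 189 CPM against 8.83 in MCS. Its rank among the tested miRNAs is thus no support. The adjusted p-value was 2.16e-05 with DESeq2 and 0.0292 with edgeR's exact test, and across the alternatives without a term for the replicate number it ran from 6.07e-08 to 0.724. Without replicate 1 of 2D the log2 fold change was -2.63, and without replicate 2 of 2D it was -5.92 and called, with an edgeR adjusted p-value of 1.10e-06.

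MiR-99b-5p reached 151886 and 20008 normalized CPM in HT29 2D and 37401 and 13465 in MCS. Replicate 1 of 2D stood far above the other 3 libraries, which overlapped between the cultures. In CPM of the library total, with no other scaling, the values were 79336 and 33217 in 2D and 27729 and 20943 in MCS, which did not overlap, as in 4.98% of the tested miRNAs with MCS below. The log2 fold change was -1.76 (SE 1.17, edgeR adjusted p = 0.977), and without replicate 1 of 2D it turned to 0.34.

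MiR-99a-5p was counted 50 and 58 times in HT29 2D and 15 and 36 times in MCS. It lay at 9.12 and 1.33 normalized CPM in 2D and 1.88 and 1.35 in MCS, so that the cultures overlapped, and was below the filter. Its counts came to 1.69% and 2.30% of those of miR-100-5p in 2D and to 12.9% and 30.5% in MCS.

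MiR-125a-5p was at 2406 and 3285 normalized CPM in HT29 2D and 1969 and 5145 in MCS. The cultures overlapped, with the numbered replicates moving in opposite directions, 0.819 and 1.57 times 2D. The log2 fold change was 0.32 (SE 0.61, edgeR adjusted p = 0.977), and without replicate 2 of MCS it was -0.56.

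MiR-125b-5p was at 10.4 and 9.24 normalized CPM in HT29 2D and 3.77 and 3.59 in MCS. Here the replicates of each culture lay close together and the cultures did not overlap. It was not tested, since its mean of 7.29 CPM was under the filter. With no filter its log2 fold change was -1.41 (SE 0.67, edgeR adjusted p = 0.973). In CPM of the library total it was at 5.43 and 15.3 in 2D and 2.79 and 5.59 in MCS, which overlapped.

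In HT29 the 3p arms did not pass the test. MiR-99b-3p was at 207 and 285 normalized CPM in 2D and 176 and 242 in MCS, 0.852 and 0.851 times 2D in the numbered replicates (log2 fold change -0.23, SE 0.46, edgeR adjusted p = 0.977). MiR-125a-3p was at 31.2 and 53.5 in 2D and 29.6 and 44.2 in MCS (log2 fold change -0.20, SE 0.53, edgeR adjusted p = 0.977). Both overlapped between the cultures.

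**Figure D2:**
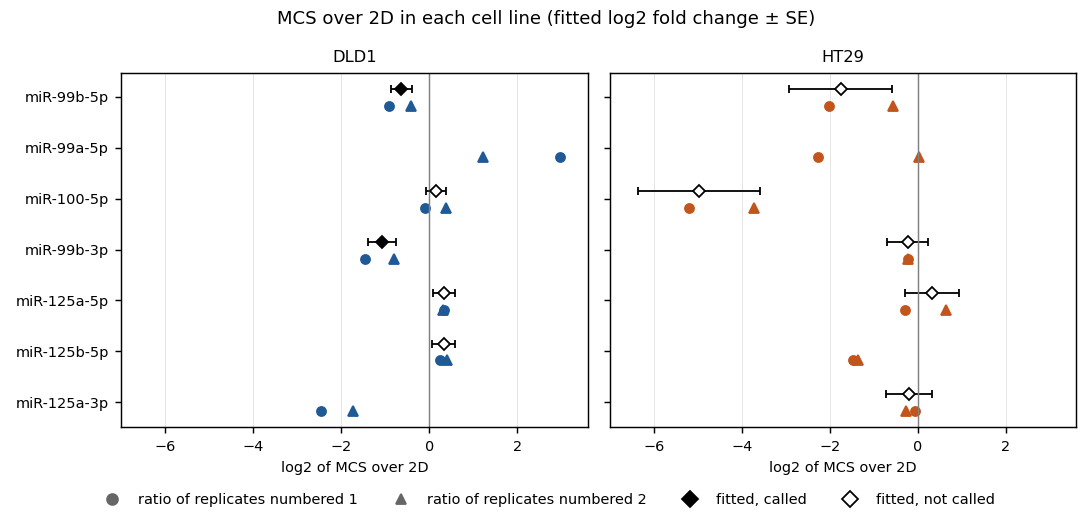
MCS over 2D on the log2 scale for each miRNA, DLD1 at left and HT29 at right on the same axis. Circles and triangles are the ratios of normalized CPM among the replicates numbered 1 and 2, diamonds the log2 fold changes fitted by edgeR with their SE, filled where called, and miRNAs below the filter have no diamond. The filled diamonds are those of miR-99b-5p (-0.64) and miR-99b-3p (-1.08) in DLD1, and the farthest to the left is miR-100-5p in HT29 (-4.98).

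The responses of the cell lines were compared by an interaction over all 8 libraries, in which 250 miRNAs had at least 10 CPM in both. By edgeR 0% were called at an adjusted p-value under 0.05 (9.20%, or 23, unadjusted), and of the 4 members tested 0 were called, with 1 unadjusted. DESeq2 called 20 of the 250, with miR-100-5p as the 1 member. For miR-100-5p the log2 response in HT29 minus that in DLD1 was -5.14 (SE 1.43), with an unadjusted p-value of 0.00889 and an adjusted p-value of 0.202 from edgeR. In HT29 miR-100-5p had passed the filter through 2D alone. With DESeq2 the adjusted p-value was 0.00127, and the alternatives without a term for the replicate number ran from 7.47e-10 to 0.269. The difference was -1.11 (SE 1.26) for miR-99b-5p, 0.84 (SE 0.52) for miR-99b-3p and -0.03 (SE 0.63) for miR-125a-5p, with edgeR adjusted p-values of 0.839, 0.708 and 0.989. Without replicate 1 of HT29 2D that of miR-99b-5p turned to 1.02, and that of miR-125a-5p changed sign under each of the 4 other scalings.

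Levels of the members differed widely between the cell lines. MiR-99b-5p held 20943 CPM or more of each HT29 library, where it ranked 3rd to 9th of all miRNAs, and 399.8 or less of each DLD1 library. The lowest HT29 library was 52.4-fold above the highest DLD1 library. In a fit of all libraries, in which 58.8% of 354 miRNAs were called between the cell lines in 2D and 57.9% in MCS, 5 of 6 members were called in 2D, 4 higher and 1 lower in HT29, and 6 of 6 in MCS, 4 higher and 2 lower. Over all miRNAs 29.1% were higher and 29.7% lower in 2D, and 27.7% and 30.2% in MCS. MiR-125a-3p averaged 10 CPM or more in HT29 alone and miR-125b-5p in DLD1 alone, so that each entered the fit through the cell line where it was high and had to differ, and these counts are no support for a difference of the group.

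For miR-99b-5p HT29 exceeded DLD1 by 8.75 on the log2 scale in 2D (SE 1.22, edgeR adjusted p = 0.000777) and by 7.64 in MCS (SE 1.16, edgeR adjusted p = 0.00119). MiR-125a-5p, from the same cluster, was higher by 5.22 in 2D and 5.19 in MCS, and miR-99b-3p by 3.12 and 3.96. MiR-125a-3p, which entered through HT29 alone, was higher by 5.36 and 7.19. MiR-125b-5p, which entered the fit through DLD1 alone, was lower in HT29, by a log2 difference of -2.34 in 2D (SE 0.32, edgeR adjusted p = 0.000719) and -4.10 in MCS (SE 0.34, edgeR adjusted p = 0.000163).

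MiR-100-5p did not pass the test between the cell lines in 2D (-0.45, SE 0.92, edgeR adjusted p = 0.693) and was lower in HT29 in MCS (-5.59, SE 1.13, edgeR adjusted p = 0.00425). The 2D value rested on how far apart the HT29 replicates lay, being -2.80 and called without replicate 1 of HT29 2D and 0.39 without replicate 2. Library totals gave -2.06, which was called, and shifted the median of all miRNAs by -0.86.

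On factors set over all 8 libraries, miR-99b-5p, miR-99b-3p and miR-125a-3p were ordered HT29 2D, HT29 MCS, DLD1 2D and DLD1 MCS by their means, with the HT29 cultures overlapping and every other neighbouring pair apart. MiR-125a-5p was ordered HT29 MCS, HT29 2D, DLD1 MCS and DLD1 2D, again with overlap within HT29 alone. MiR-125b-5p was ordered DLD1 MCS, DLD1 2D, HT29 2D and HT29 MCS, with no overlap between neighbours. MiR-100-5p ran from DLD1 MCS through DLD1 2D and HT29 2D, each overlapping the next, to HT29 MCS, which lay apart. MiR-99a-5p ran from HT29 2D through DLD1 MCS to HT29 MCS, each overlapping the next, and DLD1 2D lay apart.

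Within the seed families the shares of the members lay apart between the cell lines. Between the cultures those of miR-100-5p and miR-99b-5p lay apart in both lines. That of miR-99a-5p did so in DLD1 alone, and those of the miR-125 family in HT29 alone. The shares of a family add up to its whole, so these separations are not independent of each other. No share over other families was taken. Of single miRNAs tested, 70.8% did not overlap in DLD1, and 10.6% had MCS below in HT29. MiR-100-5p made 68.3% and 65.5% of the miR-99/100 family's counts in DLD1 2D and 78.8% and 76.5% in DLD1 MCS. In HT29 it made 0.353% and 0.289% in 2D and 0.0389% and 0.0328% in MCS, nearly all others being miR-99b-5p. The share of miR-100-5p thus lay higher in both MCS libraries of DLD1 and lower in both of HT29, without overlap in either line. The family's whole count came to 0.0824% to 0.119% of a DLD1 library and 2.10% to 7.96% of an HT29 library. In DLD1 the family's normalized sum was 1071 and 997 CPM in 2D and 866 and 1104 in MCS, which overlapped.

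In the miR-125 family miR-125a-5p made 57.2% and 63.6% of counts in DLD1 2D and 58.8% and 62.2% in MCS, with no separation of the cultures. In HT29 it made 99.6% and 99.7% in 2D and 99.8% and 99.9% in MCS. This family as a whole held 0.0211% to 0.0262% of a DLD1 library and 0.126% to 0.801% of an HT29 library.

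**Figure D3:**
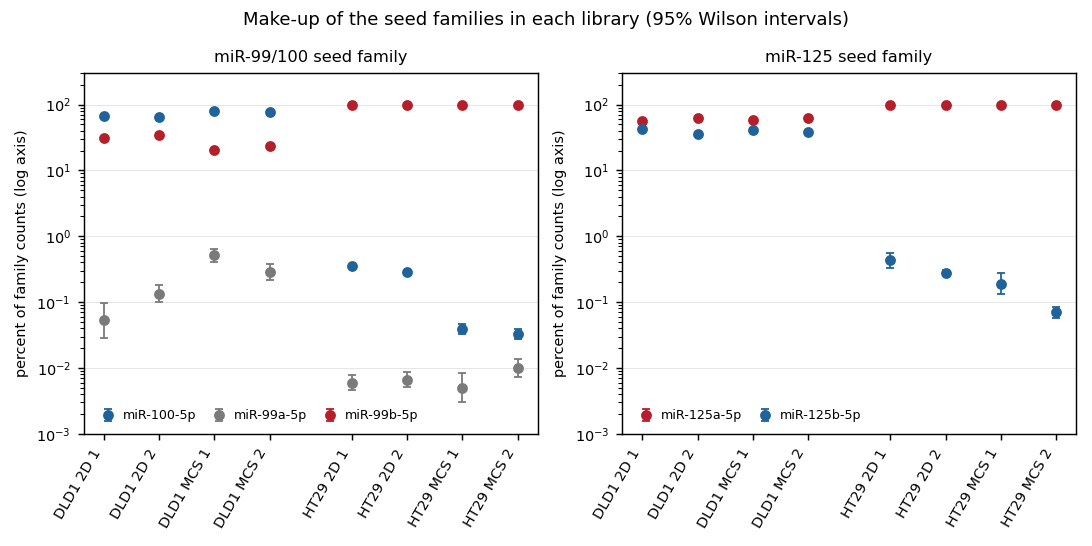
Percent of the counts of each seed family held by each member in each library, on a log axis, with 95% Wilson intervals that cover counting error only and are mostly smaller than the points. MiR-100-5p (blue, left) holds 65.5% to 78.8% in DLD1 and 0.0328% to 0.353% in HT29, and miR-125b-5p (blue, right) is the smaller part in every library.

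The ratio of the arms of a hairpin does not depend on how a library is scaled. For miR-125a in DLD1 the 5p arm was counted 66.7 and 80.9 times as often as the 3p arm in 2D and 465 and 336 times as often in MCS. The ratio was thus higher in both MCS libraries, by 2.43 on the log2 scale or 5.38-fold, on 6 and 8 counts of the 3p arm in MCS. Of 161 hairpins with counts of both arms in every library and a mean of 1 CPM or more for each, 2 had a larger difference between the cultures, and 46.6% had cultures that did not overlap, 36 with a higher and 39 with a lower ratio in MCS. The 3p arm of miR-125a passed this filter through 2D alone, at a mean of 2.00 CPM against 0.361 in MCS. Its rank among the hairpins was thus partly set by the filter and is no support for a change. The exact two-sided permutation test gave 0.33, the smallest p-value that 2 libraries against 2 allow.

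For miR-99b in DLD1 the ratio was 7.45 and 6.72 in 2D and 10.9 and 8.82 in MCS, a difference of 0.47 against a median absolute difference of 0.46 over the hairpins. In HT29 it was 734 and 70.3 in 2D and 212 and 55.6 in MCS. In CPM of the library total the 5p arm was at 79336 and 33217 in replicates 1 and 2 of 2D. The 3p arm was at 108 and 473. The ratio thus differed 10.4-fold between these replicates, more than all but 5 of 142 hairpins. Neighbouring let-7e shared that split, at 128 and 24.7 in 2D and 121 and 31.5 in MCS. Let-7a, made from several hairpins, split the same way, at 38.6 and 10.1 in 2D and 39.4 and 22.1 in MCS. MiR-125a did not, at 77.1 and 61.4 in 2D and 66.5 and 117 in MCS. Over the 142 hairpins the median absolute log2 difference between the HT29 2D replicates was 1.08, and 23 had a larger one than let-7e. Replicate 1 is also where miR-10a-5p took the larger share, and its part in these ratios was not tested. For miR-99b the log2 difference between the cultures in HT29 was -1.06, smaller than that of replicate 1 minus replicate 2 in 2D (3.38) and MCS (1.93). For miR-125a it was 0.36, against 0.33 in 2D and -0.81 in MCS between the replicates. The exact permutation p-values were 0.67 each.

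**Figure D4:**
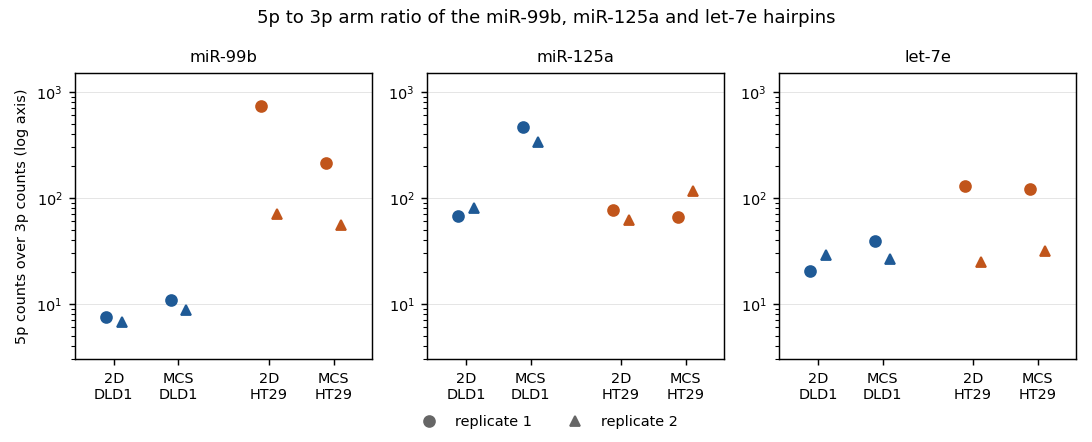
Ratio of 5p to 3p counts for the 3 hairpins of the chromosome 19 cluster in each library, on 1 log axis, with DLD1 in blue, HT29 in orange, circles for replicate 1 and triangles for replicate 2. MiR-125a in DLD1 lies at 66.7 and 80.9 in 2D and 465 and 336 in MCS, and miR-99b in HT29 splits by replicate number, 734 and 212 against 70.3 and 55.6.

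Of the 3p arms of the chromosome 11 and 21 hairpins, miR-125b-1-3p, miR-100-3p and miR-125b-2-3p separated the cell lines, on low counts. Their sequences show how the hairpins that share a 5p arm can be told apart by the 3p arm. For miR-125b these arms differ at 17 of 22 positions when compared base by base from the 5′ end. That count overstates the difference, since the 3p arms share a run of bases toward their 3′ end, at shifted positions. Seeds are again in capitals.
miR-125b-1-3p: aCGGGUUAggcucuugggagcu
miR-125b-2-3p: uCACAAGUcaggcucuugggac
miR-100-3p: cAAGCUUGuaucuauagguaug
MiR-125b-1-3p, from MIR125B1 beside MIR100, was counted 61 and 138 times in DLD1 2D, 14 and 17 times in DLD1 MCS and 0 times in the 4 HT29 libraries. MiR-100-3p was counted 34 and 74 times in DLD1 2D, 17 and 41 times in DLD1 MCS and 0 times in HT29. Let-7a-2-3p, from MIRLET7A2, was counted 14 and 12 times in DLD1 2D, 2 and 0 times in DLD1 MCS and 0 times in HT29. Replicate 2 of DLD1 MCS was thus not apart from HT29 in let-7a-2-3p. MiR-99a-3p and let-7c-3p had no row. A count of 0 allows up to 3 counts, or 0.114 to 0.286 CPM by library. MiR-125b-2-3p, from MIR125B2 on chromosome 21, had the reverse pattern, with 26 and 104 counts in HT29 2D, 16 and 25 in HT29 MCS, 0 in both DLD1 2D libraries and 5 and 1 in DLD1 MCS.

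MiR-125b-5p in DLD1 was thus counted mainly beside the 3p arm of MIR125B1, and in HT29 beside that of MIR125B2, which came to 45.6% and 25.9% of the 5p count in HT29 2D and 53.3% and 26.0% in MCS. In DLD1 the count of miR-125b-5p was 25.4 and 17.5 times that of miR-125b-1-3p in 2D and 139 and 96.1 times in MCS. The 3p arm fell with no filter on low counts (log2 fold change -2.13, SE 0.69, edgeR adjusted p = 0.0212), while the 5p arm did not pass the test. Its direction is the one miR-125a-3p, miR-99b-3p and let-7a-2-3p also had in DLD1. Of the other 3p arms there, let-7a-3p lay higher in MCS (log2 fold change 0.84), as did miR-125b-2-3p on its few counts. Let-7e-3p and miR-100-3p were slightly lower with no filter (log2 fold changes -0.29 and -0.31). In normalized CPM both overlapped between the cultures.

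The cluster partners and remaining arms, a list of 11 miRNAs, were in the table for 9. In DLD1 4 were tested and 3 called, all higher (29.8% of all tested miRNAs). They were let-7a-5p (log2 fold change 1.57, edgeR adjusted p = 1.64e-06), let-7a-3p (0.84, 0.00136) and let-7c-5p (2.07, 3.42e-08), all of the let-7 family of differentiation-linked miRNAs. Let-7a-3p is not the 3p arm of MIRLET7A2. That arm is let-7a-2-3p, counted 14 and 12 times in DLD1 2D and 2 and 0 times in MCS. Let-7a-5p is also made from hairpins outside the chromosome 11 cluster. Let-7c-5p differs by a single base from let-7a-5p, at 673 and 702 counts against 584248 and 633175 in DLD1 MCS. Whether reads of let-7a-5p are among those of let-7c-5p was not tested. The call of let-7a-3p was lost with library totals (edgeR adjusted p = 0.0618), the upper quartile of the tested miRNAs alone (0.127) and without replicate 1 (0.0604) or 2 (0.0639) of DLD1 2D. With all 8 libraries in 1 fit all 3 calls were lost, at edgeR adjusted p-values of 0.312 for let-7a-5p, 0.230 for let-7a-3p and 0.0985 for let-7c-5p. Let-7e-5p, which sits between miR-99b and miR-125a, was not called (0.06, SE 0.30, edgeR adjusted p = 0.876). In HT29 4 were tested and edgeR called 0, with 0 at an unadjusted p-value under 0.05, as did DESeq2 and the exact test. Between the cell lines let-7e-5p followed its neighbours, higher in HT29 by 5.62 on the log2 scale in 2D and 5.59 in MCS.

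Ratios between neighbours show where cluster mates parted. The count of miR-99b-5p over that of miR-125a-5p was 2.87 and 2.42 in DLD1 2D and 1.20 and 1.46 in MCS, with no overlap. In HT29 it was 63.1 and 6.09 in 2D and 19.0 and 2.62 in MCS, again split by replicate number. Against let-7e-5p, miR-99b-5p stood at 8.07 and 6.21 in DLD1 2D and 3.72 and 4.81 in MCS. In HT29 that ratio was 66.3 and 37.4 in 2D and 17.0 and 19.6 in MCS, so that both cell lines had both MCS libraries below both 2D libraries. No share over other ratios of this kind was taken. Of single miRNAs tested, 70.8% did not overlap in DLD1, and 10.6% had MCS below in HT29.

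On chromosome 11, miR-100-5p over miR-125b-5p was 8.30 and 8.05 in DLD1 2D and 6.55 and 7.89 in MCS. In HT29 it was 51.8 and 6.28 in 2D and 3.87 and 1.23 in MCS, without overlap. MiR-125b-5p is also made from MIR125B2 on chromosome 21. In HT29 the 3p arm of MIR125B1 had 0 counts in each library, and that of MIR125B2 had 16 to 104. The ratio in HT29 may therefore not compare neighbours. MiR-100-5p over let-7a-5p, a miRNA made from several hairpins, was 0.0687 and 0.0474 in DLD1 2D and 0.0219 and 0.0204 in MCS. In HT29 the same ratio was 0.0442 and 0.0260 in 2D and 0.00125 and 0.00119 in MCS, where these libraries lay close together.

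**Figure D5:**
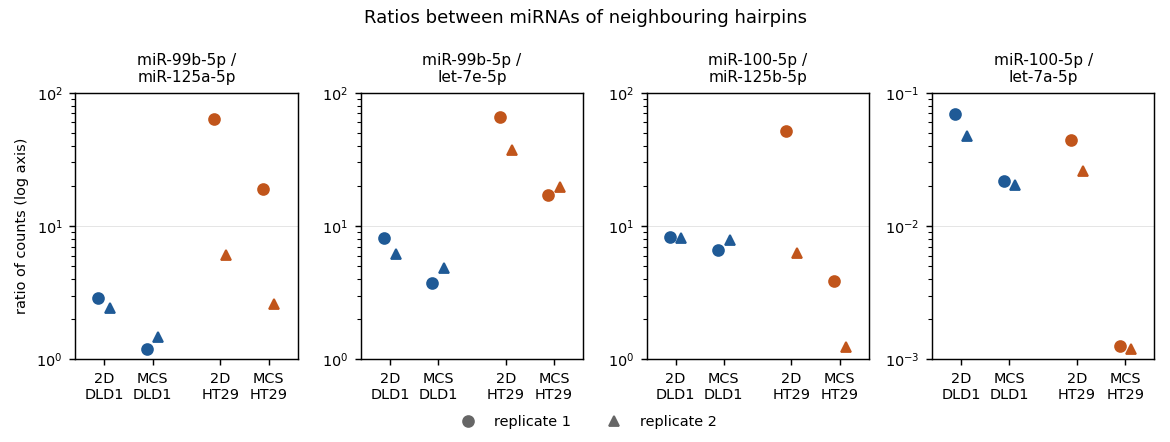
Ratio of counts between miRNAs of neighbouring hairpins in each library, on log axes that differ between panels, with DLD1 in blue, HT29 in orange, circles for replicate 1 and triangles for replicate 2. MiR-125b-5p and let-7a-5p are also made from hairpins outside the chromosome 11 cluster. MiR-100-5p over let-7a-5p lies at 0.0442 and 0.0260 in HT29 2D and 0.00125 and 0.00119 in HT29 MCS, and miR-99b-5p over let-7e-5p is lower in MCS than in 2D in both cell lines.

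The miRNAs most alike to each member were taken by Pearson's r of log2(normalized CPM + 1) over the 8 libraries after removing each cell line's mean, among 246 candidates. The points share their libraries and scaling, so r is a description only. MiR-185-5p (0.977), miR-335-3p (0.972) and let-7f-1-3p (0.965) were most alike to miR-99b-5p. For miR-100-5p they were miR-452-5p (0.908), miR-671-5p (0.877) and miR-185-5p (0.877), and miR-452-5p also led for miR-125b-5p (0.927). MiR-423-3p led for miR-125a-5p (0.926), miR-2277-5p for miR-125a-3p (0.972), miR-222-3p for miR-99b-3p (0.921) and miR-106b-3p for miR-99a-5p (0.938).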

How the data were processed

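By the paper's methods, the authors trimmed adapters with Cutadapt, removed reads that were short or of low quality, and aligned those left with Bowtie2 to GRCh37. The deposited values are raw counts of reads matched to each mature miRNA of miRBase, neither normalized nor pooled. The handling of strand is not given in the sources used here. The table of all libraries and the single-library tables held 14360 values, of which 0 differed. A further 15 entries that name no miRNA, 0.00988% of 1 library, were left out.

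MCS was tested against 2D in each cell line with edgeR 4.0.16 (quasi-likelihood, R 4.3.3) over those averaging 10 CPM or more, with upper quartile factors over all miRNAs with a count. The quasi-likelihood test replaced the exact test of the paper's methods, which was an alternative. SEs are the log2 fold change over the root of its F. With 2 libraries per group the spread between replicates, not depth, limits precision, and intervals cover counting error only. Scripts were tested on simulated data. DESeq2 1.42.0 and the alternatives in the closing section were also run. All 7 members are named, with 3 most alike miRNAs taken for each and a list of cluster partners. The members, lists and tests were chosen with earlier results of these data known. Python 3.11.15 was used for ratios, shares and figures.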

Additional observations from a re-analysis of the deposited data

Results flagged for a closer look

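The normalized levels of miR-125b-5p lay in opposite directions in the cell lines. In DLD1 both MCS libraries lay above both 2D libraries, as did 45.4% of tested miRNAs, with a ratio of means of 1.25, and in HT29 both lay below, as did 10.6%, with a ratio of 0.375. The DLD1 value did not pass the test (log2 fold change 0.32, edgeR adjusted p = 0.335), lies near the median of all miRNAs (0.23) and turned negative with library totals (-0.04) and the upper quartile of the tested miRNAs alone (-0.13). The difference was not tested, since the miRNA was under the filter of 10 CPM in HT29. With no filter, the interaction fitted by edgeR was -1.76 (SE 0.72) with an adjusted p-value of 0.451. In CPM of the library total the cultures overlapped in both cell lines.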

How the results depend on the processing

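Over 43 results, 447 of the alternative values kept their direction and side of the threshold or, with no test, moved by less than the replicate spread (5 of the latter changed sign), 24 reversed, 12 became called, 5 lost a call and 11 counts moved by over 1.5 times. The count of members called in DLD1 went from 2 to 0 with all 8 libraries in 1 fit, and ran from 0 to 2 with 1 library left out (0 without replicate 1 of MCS). In HT29 it went from 0 to 1 with no filter, DESeq2 or edgeR's exact test, and ran from 0 to 1 with 1 library left out. The interaction count went from 0 to 2 with no filter (miR-100-5p and miR-99a-5p) and to 1 with DESeq2, and ran from 0 to 1 with 1 library left out. Between the cell lines the counts ran from 5 to 6 in 2D and stayed at 6 in MCS. MiR-99b-5p in DLD1 also lost its call with no filter (edgeR adjusted p = 0.0724). The cause was not tested.

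The replicate numbers are shared by the cultures, but no label ties them to a day or batch. The correlation of the deviations of same-numbered libraries was 0.32 in DLD1 and 0.79 in HT29, over 2 pairs each. With a replicate block the HT29 count went from 0 to 2, namely miR-100-5p (-4.46, edgeR adjusted p = 1.91e-25) and miR-99b-5p (-1.30, 0.00166), and the count over all miRNAs from 0 to 47. The interaction count with the replicate block was 1.

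Signs reversed in DLD1 for miR-100-5p with TMM (-0.064), library totals (-0.24) and the upper quartile of the tested miRNAs (-0.33), for miR-125a-5p with totals (-0.052) and the tested quartile (-0.13), and for miR-125b-5p with the same (-0.036, -0.13). The interaction of miR-125a-5p reversed with TMM (0.041), RLE (0.080), totals (0.55), the tested quartile (0.46) and DESeq2 (0.080). With 1 library left out, signs changed within the ranges -0.078 to 0.12 for miR-100-5p in DLD1, -2.71 to 0.34 for miR-99b-5p, -0.56 to 0.83 for miR-125a-5p and -0.54 to 0.16 for miR-125a-3p in HT29, -1.97 to 1.02 and -0.84 to 0.55 for the interactions of miR-99b-5p and miR-125a-5p, and -2.80 to 0.39 for miR-100-5p between the cell lines in 2D. Of these, that of -2.80 was called. Leaving out 1 HT29 library moved the arm ratio difference of miR-99b between -2.76 and 0.63, that of miR-125a between -0.05 and 0.76, and the log2 ratio of miR-99b-5p to miR-125a-5p between -3.16 and 0.21. Leaving out 1 DLD1 library moved the share of miR-125a-5p between -3.05 and 3.31 percentage points.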
